A study of Ovis aries with 12 samples.

Results

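Messenger RNA for 5 genes of lipid storage and uptake, PLIN2, LPL, FABP4, PPARG and ME1, was measured in late-gestation sheep fetuses, in the biceps femoris of the hind limb. The 5 genes were found among 862 genes that could be named on a 1-colour Agilent sheep array, through the gene symbol or the sheep RefSeq transcript given for each probe. They are covered by 7 of 15008 probes, with 2 probes each for PLIN2 and LPL and 1 each for FABP4, PPARG and ME1. The control group was 6 arrays from singleton fetuses whose mothers received vehicle. The cortisol group was 6 arrays from singleton fetuses whose mothers were infused with cortisol (Solu-Cortef) at 1 mg/kg/day. Infusion began near day 115 of pregnancy in both groups and ran to necropsy, soon after the onset of labour, at 139 to 144 days. The steroid was given to the ewe and not to the fetus, and no breed, sex or plasma cortisol value is used here. The labels count 7 ewes per arm, and samples beyond the 6 arrays per arm were not analysed here. The comparison asks how about 25 days of raised maternal cortisol bear on gene expression in late fetal skeletal muscle.

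Fat reaches muscle and adipose tissue largely as triglyceride in lipoproteins. Lipoprotein lipase, encoded by LPL and held on the capillary wall, releases the fatty acids, which cells take up and carry in the cytosol on fatty acid binding proteins such as FABP4. Fatty acids that are not burned are stored as triglyceride in droplets, which PLIN2 coats in most tissues outside fat, muscle included. PPARG is the nuclear receptor that drives adipocyte formation and has FABP4, LPL and PLIN2 among its known target genes, and ME1, the cytosolic malic enzyme, supplies NADPH for making fatty acids. Glucocorticoids such as cortisol are known to promote adipocyte formation and to act on the use of fat in muscle.

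Signal is given as the log2 of the scanner's processed intensity relative to the 75th percentile of the same array, so 0 is the 75th percentile and a difference of 1 is a doubling. Between 66.3% and 76.0% of the probes on an array were well above background, and the 75th percentile lay between 187 and 447 intensity units. Mean correlation of an array with the others of its group was 0.965 to 0.979 among controls and 0.958 to 0.965 in the cortisol group. Fibre type genes set control array 3 apart. The slow myosin gene MYH7 was 3.97 there and 0.47 to 2.04 on the other controls, while the fast myosin gene MYH1 was 0.50 there and 4.92 to 5.93 on the others. Skeletal muscle genes MYOD1, MYOG and MB were well above background on every array. None of 6 heart genes listed as markers was on the array by name, so no heart marker could be set beside them. A treatment field of the labels mentions heart, while the sample titles name biceps. In limma's moderated test with Benjamini-Hochberg adjustment, 0 of 10730 probes (0%) passed an adjusted p of 0.05. Before adjustment, 732 probes (6.82%) had a p under 0.05, of which 230 (2.14% of those tested) had the higher and 502 (4.68%) the lower mean after cortisol.

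Of the 5 genes, PLIN2 had a higher mean after cortisol by about 1 log2 unit, LPL had a lower mean, and PPARG and ME1 were higher by less. FABP4 also had a higher mean, but it was well above background on only 2 of 6 control arrays and entered the test through the cortisol group, so it is left out of the counts that follow. No member passed the adjusted threshold. Of the 4 genes well above background on all 12 arrays, 3 had a higher and 1 a lower mean, where 46.0% of all tested probes had a higher mean, and their median log2 difference was 0.35, beside -0.02 over all tested probes. Only PLIN2 among the 4 had an unadjusted p under 0.05, in the direction in which 2.14% of probes did. PLIN2 was also the 1 of the 4 higher by 1 log2 unit or more, as 0.690% of tested probes were. On the main probes 0 were lower by that much, as 0.531% of probes were, although an LPL probe outside the rule was lower by 1.08. On 0 of the 4 main probes was every cortisol array above every control, as on 0.0932% of probes. The 5 genes were put together with results of these arrays known, so these counts describe them and support nothing further.

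**Figure D1:**
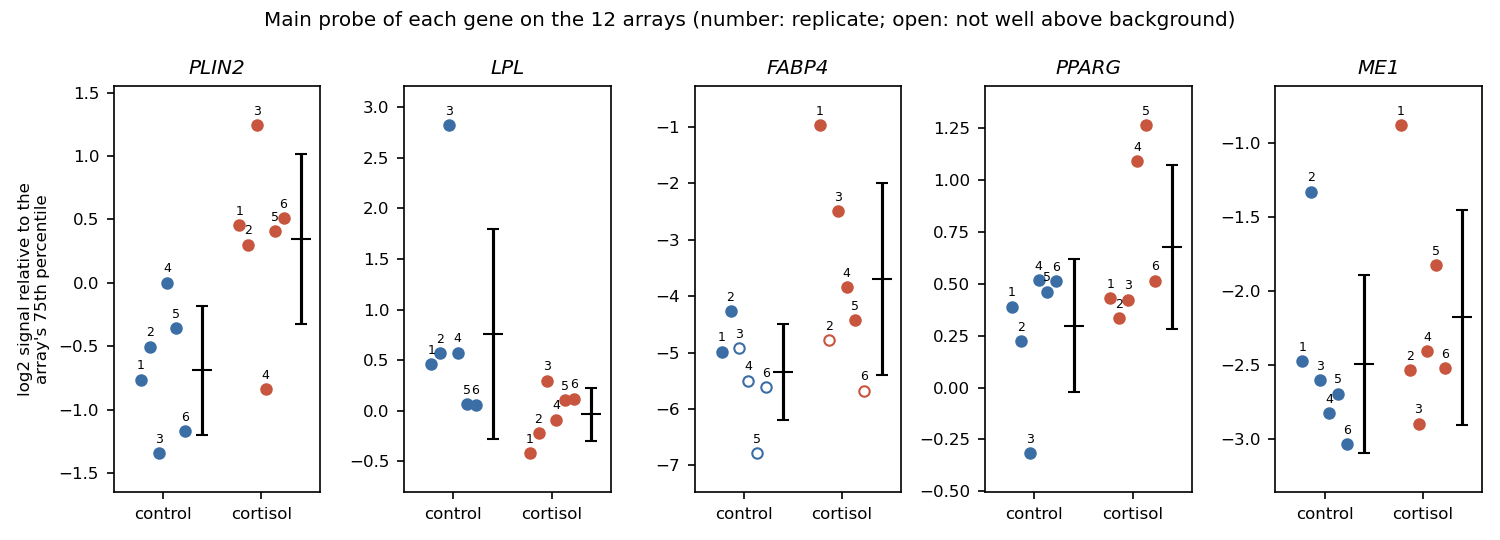
Log2 signal relative to the array's 75th percentile (vertical axes, each with its own range) for the main probe of PLIN2, LPL, FABP4, PPARG and ME1 on 6 control and 6 cortisol arrays; each point is 1 array with its replicate number, open points were not well above background, and bars are the mean ± SD. For PLIN2, 5 of the 6 cortisol arrays sit above every control, LPL on control array 3 sits far above the rest at 2.82, and the FABP4 range in the cortisol group, -5.68 to -0.97, is the widest.

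PLIN2, which encodes the protein coat of lipid droplets, was about 2-fold higher after cortisol, and its groups overlapped through 1 array. Its 2 probes share 39 bases of the transcript, so they are close to a repeat measurement of one stretch. They are printed 5′ to 3′, as the arrays carry them, with the shared bases in capitals. Probe 1 begins at base 1171 of the RefSeq transcript given for it and probe 2 at base 1150.
PLIN2 probe 1: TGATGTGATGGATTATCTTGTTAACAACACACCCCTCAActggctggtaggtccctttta
PLIN2 probe 2: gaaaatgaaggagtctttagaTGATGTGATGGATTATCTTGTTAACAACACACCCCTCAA

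On probe 1, the brighter of the pair, the controls ran from -1.34 through a median of -0.63 to 0.00052. The cortisol arrays ran from -0.84 through a median of 0.43 to 1.24. Cortisol arrays 1, 2, 3, 5 and 6 were above every control, cortisol array 3 being the highest, and cortisol array 4 lay within the control range, below controls 1, 2, 4 and 5. At least 5 of 6 cortisol arrays were above every control for 86 of 10730 probes (0.801%).

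The PLIN2 mean was -0.69 ± 0.51 (SD, n = 6) in controls and 0.35 ± 0.67 (SD, n = 6) after cortisol. The difference was 1.04 (SE 0.31, 95% interval 0.37 to 1.71), a 2.05-fold higher signal with an interval of 1.29 to 3.27. Limma gave an unadjusted p of 0.00514 and an adjusted p of 0.692, and the exact two-sided permutation test over the 12 arrays gave p = 0.0195. Probe 2 gave a difference of 1.03 (0.38 to 1.67), with an exact permutation p of 0.0152. The 2 PLIN2 probes had a correlation of 0.995 across the 12 arrays, and their difference varied with an SD of 0.077.

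The mean PLIN2 difference was of like size in the parts of the experiment that could be taken alone, though single arrays within a part differed widely. The arrays lay on 2 slides, in 3 sets of 2 control and 2 cortisol arrays by slide and row, and the difference was 1.01, 0.87 and 1.23 in these sets. In the set with 0.87, control arrays 3 and 4 were at -1.34 and 0.00052, and cortisol arrays 3 and 4 at 1.24 and -0.84. Leaving out each array in turn gave 0.86 to 1.27, the lowest without cortisol array 3 and the highest without cortisol array 4. Without control array 3 it was 0.91.

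LPL, the lipoprotein lipase gene, was the only gene of the 5 with a lower mean after cortisol. Its size rested in large part on control array 3. The 2 LPL probes that the rule finds share 20 bases, in capitals, and begin at bases 1497 and 1537 of the transcript, so together they read an unbroken stretch of it.
LPL probe 1: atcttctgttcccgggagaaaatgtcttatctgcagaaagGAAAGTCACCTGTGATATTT
LPL probe 2: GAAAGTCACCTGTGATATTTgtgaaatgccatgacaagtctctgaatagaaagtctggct

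On LPL probe 1 the controls ran from 0.061 through a median of 0.51 to 2.82, and the cortisol arrays from -0.42 through a median of 0.0068 to 0.30. Control array 3 held the 2.82, and the other controls lay between 0.061 and 0.57. All 6 cortisol arrays were below the control median, and 3 of them, arrays 1, 2 and 4, were below every control, where at least 3 of 6 were so for 16.9% of probes.

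The LPL mean was 0.76 ± 1.04 (SD, n = 6) in controls and -0.04 ± 0.26 (SD, n = 6) after cortisol. The difference was -0.79 (SE 0.39, 95% interval -1.63 to 0.04), which is 1.73-fold lower after cortisol. Limma gave an unadjusted p of 0.0608 and an adjusted p of 0.745, and the exact permutation test gave p = 0.0238. Without control array 3 the difference was -0.38, with a limma unadjusted p of 0.0475 and an adjusted p of 0.733. Within the 3 slide and row sets it was -0.84, -1.59 and 0.048, the middle value being that of the set with control array 3. Probe 2 gave -0.80, with an exact permutation p of 0.0281, and -0.39 without control array 3.

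Another LPL probe is named on the array only by its description, as the 3′ untranslated region of the sheep gene, and was outside the rule. It was the LPL probe on which the groups did not overlap. There the controls ran from 1.70 through a median of 1.83 to 4.58, and the cortisol arrays from 0.43 through a median of 1.30 to 1.64. All 6 cortisol arrays were below every control, as for 34 of 10730 probes (0.317%), although cortisol array 3 at 1.64 and control array 5 at 1.70 were close neighbours.

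On this 3′ probe the mean was 2.29 ± 1.13 (SD, n = 6) in controls and 1.21 ± 0.45 (SD, n = 6) after cortisol. The difference was -1.08 (95% interval -2.02 to -0.14), with a limma unadjusted p of 0.0270 and an adjusted p of 0.692. The exact permutation p of 0.00216 is the smallest that 6 against 6 arrays can give. This probe was chosen after seeing the data, so that p and the lack of overlap are a description only. Without control array 3 the difference was -0.62, with a limma unadjusted p of 0.0103 and an adjusted p of 0.689, and the set values were -1.19, -1.81 and -0.26. Its correlation with probe 1 across the 12 arrays was 0.974. The 3′ probe exceeded probe 1 by 1.53 ± 0.24 (SD, n = 6) in controls and by 1.24 ± 0.21 (SD, n = 6) after cortisol, a change in that gap of -0.29 with an exact permutation p of 0.0519.

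**Figure D2:**
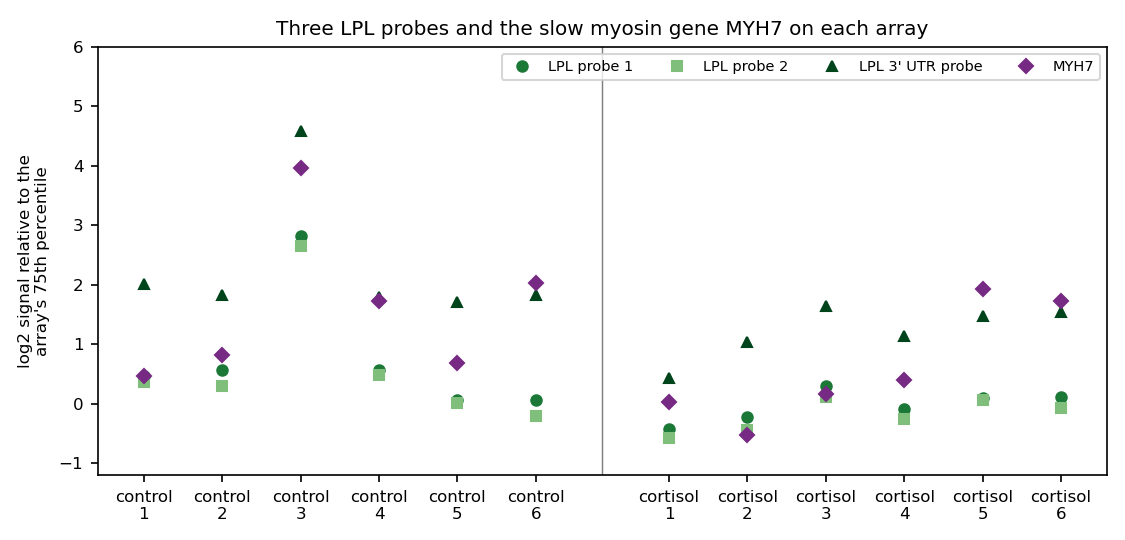
Log2 signal relative to the array's 75th percentile (vertical axis) of LPL probes 1 and 2, the LPL 3′ untranslated region probe and the slow myosin gene MYH7 on each of 6 control and 6 cortisol arrays (horizontal axis). All 4 are highest on control array 3, where LPL probe 1 is 2.82 and MYH7 is 3.97. On the 3′ probe, chosen after seeing the data, every cortisol array, at most 1.64, is below every control, at least 1.70.

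Slow and oxidative fibres are known for a high capacity to take up fatty acids. On control array 3, where LPL was highest, MYH7 was also highest and the fast myosin genes MYH1 and MYH2 were 0.50 and 0.79, below all other arrays. The mean of the 3 fast fibre genes measured, MYH1, MYH2 and TNNC2, was 3.24 there and 6.67 to 7.73 on the other 11 arrays. MYH7, the 1 measured of 6 slow fibre markers, ran from 0.47 to 3.97 in controls and from -0.53 to 1.93 after cortisol, a difference of -0.999 with an exact permutation p of 0.158 (0.382 adjusted over 9 marker lists). The 2 genes did not go together on every array. Control array 6 had the next highest MYH7, at 2.04, and the lowest LPL probe 1 of the controls, at 0.061. Control array 5 was nearly as low on probe 1, at 0.065. Probe 2 was also lowest of the controls on control array 6, at -0.21. On the 3′ probe, however, control array 6, at 1.83, was above control arrays 2, 4 and 5, at 1.82, 1.80 and 1.70. In the cortisol group, arrays 5 and 6 had the highest MYH7, at 1.93 and 1.73. Their LPL values of 0.10 and 0.12 were above those of arrays 1, 2 and 4 and below that of array 3. The part of fibre type in the LPL difference was not tested. In pieces of whole muscle, fewer cells of a type and less RNA per cell cannot be told apart.

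FABP4, a fatty acid carrier found mainly in adipocytes and macrophages, was near the lower limit of detection, with a higher mean and a wide spread after cortisol. Its 1 probe is named FABP4 by the array and derives from an expressed sequence tag, a short read of a cDNA clone, whose place in the FABP4 transcript was not checked here. None of the reading frames of the probe as printed on the array is free of stop triplets. The probe was well above background on 2 control arrays, 1 and 2, and on 4 cortisol arrays, 1, 3, 4 and 5. Its processed intensity was 1.70 to 18.6 units in controls and 6.69 to 228 after cortisol. The 228 was that of cortisol array 1, followed by 47.0 on cortisol array 3, and the 1.70 of control array 5 was a substitute that the scanner software set for a spot not brighter than its background.

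On the log2 scale the FABP4 controls ran from -6.78 through a median of -5.24 to -4.27, and the cortisol arrays from -5.68 through a median of -4.13 to -0.97. Cortisol arrays 1, 3 and 4 were above every control, where at least 3 of 6 were so for 13.3% of probes. Arrays 2, 5 and 6 of that group lay within the control range.

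The FABP4 mean was -5.35 ± 0.85 (SD, n = 6) in controls and -3.70 ± 1.70 (SD, n = 6) after cortisol. The difference of these means was 1.65, but with 4 of 6 controls not well above background and 1 of them a substitute value its size is not fixed, and no fold is given. Limma gave an unadjusted p of 0.0288 and an adjusted p of 0.692, and the exact permutation test gave p = 0.0606. FABP4 entered the test through the cortisol group, so the limma values are no support for a difference. Without cortisol array 1 the difference was 1.1 and without control array 5 it was 1.36. It was 1.75, 2.05 and 1.15 within the 3 slide and row sets. With a normexp background correction, which raises dim spots, it was 0.35 (limma unadjusted p = 0.182), below the 0.86 of PLIN2, and in the deposited log2 values it was 0.92 (unadjusted p = 0.0645), beside 0.99 for PLIN2.

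The mean of 3 leukocyte markers was highest on the arrays with most FABP4 signal, but the single genes were not alike in this. The mean of the 3 measured of 11 macrophage and leukocyte markers, CD14, FCER1G and ITGB2, ran from -3.04 to -2.59 in controls and from -2.78 to -1.84 after cortisol. Cortisol arrays 1 and 3 had the highest values, -1.84 and -2.06. The difference of 0.49 had an exact permutation p of 0.0108 and 0.0779 adjusted over 9 marker lists. None of the 3 is a macrophage gene alone, and LYZ was well above background on only 3 arrays. The 3 measured of 6 skeletal muscle markers, MYOD1, MYOG and MB, had a mean of 2.95 ± 0.085 (SD, n = 6) in controls and 2.24 ± 0.68 (SD, n = 6) after cortisol, a difference of -0.72 with an exact permutation p of 0.0173 (0.0779 adjusted over 9 lists). MB differed most, by -1.46 (limma unadjusted p = 0.00883, adjusted 0.692). MYOD1 differed by -0.52 (unadjusted p = 0.261) and MYOG by -0.17 (unadjusted p = 0.516). The mean of the 3 fast fibre genes was higher by 0.83 (exact permutation p = 0.212), with control array 3 low. The part of leukocytes and of muscle content in the values of the 5 genes was not tested.

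Adipocyte markers had nearly equal means in both groups. The mean of the 3 measured of 10 adipocyte markers, LEP (leptin), PLIN1 (the droplet coat of fat cells) and PCK1, ran from -2.22 to -1.43 in controls and from -2.24 to -1.49 after cortisol, a difference of -0.03 with an exact permutation p of 0.851. Cortisol array 1, with the highest FABP4, had the lowest PLIN1 of all 12 arrays, at -1.57, and the lowest mean of the adipocyte markers.

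PPARG, the nuclear receptor of adipocyte formation, was higher after cortisol by an amount within the spread of the arrays. Its probe covers the end of the coding sequence, from base 1368 of the transcript to the closing stop triplet, which is in capitals.
PPARG: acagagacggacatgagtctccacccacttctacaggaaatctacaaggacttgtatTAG

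The PPARG controls ran from -0.32 through a median of 0.42 to 0.52 and the cortisol arrays from 0.34 through a median of 0.47 to 1.26. Cortisol arrays 4 and 5, at 1.09 and 1.26, were above every control, and the other 4 cortisol arrays lay within the control range. Control array 3 was the lowest of the 12 at -0.32.

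The PPARG mean was 0.30 ± 0.32 (SD, n = 6) in controls and 0.68 ± 0.40 (SD, n = 6) after cortisol. The difference was 0.38 (SE 0.21, 95% interval -0.06 to 0.82), a 1.30-fold higher signal, with a limma unadjusted p of 0.0874, an adjusted p of 0.757 and an exact permutation p of 0.128. Without control array 3 it was 0.26. It was 0.077 in the set on slide 1, and 0.66 and 0.40 in the 2 sets on slide 2, which held both of the high cortisol arrays.

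ME1, the NADPH-producing malic enzyme, had a difference smaller than the spread within its groups. Its probe begins at base 1213 of the transcript and is shown in lower case throughout, since no second probe overlaps it.
ME1: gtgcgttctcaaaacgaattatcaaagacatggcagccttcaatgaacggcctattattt

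The ME1 controls ran from -3.03 through a median of -2.65 to -1.33, and the cortisol arrays from -2.90 through a median of -2.46 to -0.88. Each group had 1 high array, control array 2 and cortisol array 1, and cortisol array 1 was the only array above every control. The mean was -2.49 ± 0.60 (SD, n = 6) in controls and -2.18 ± 0.72 (SD, n = 6) after cortisol. The difference was 0.32 (SE 0.35, 95% interval -0.43 to 1.06), with a limma unadjusted p of 0.376, an adjusted p of 0.872 and an exact permutation p of 0.426. It was 0.056 without cortisol array 1 and 0.55 without control array 2, so single arrays set its size.

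**Figure D3:**
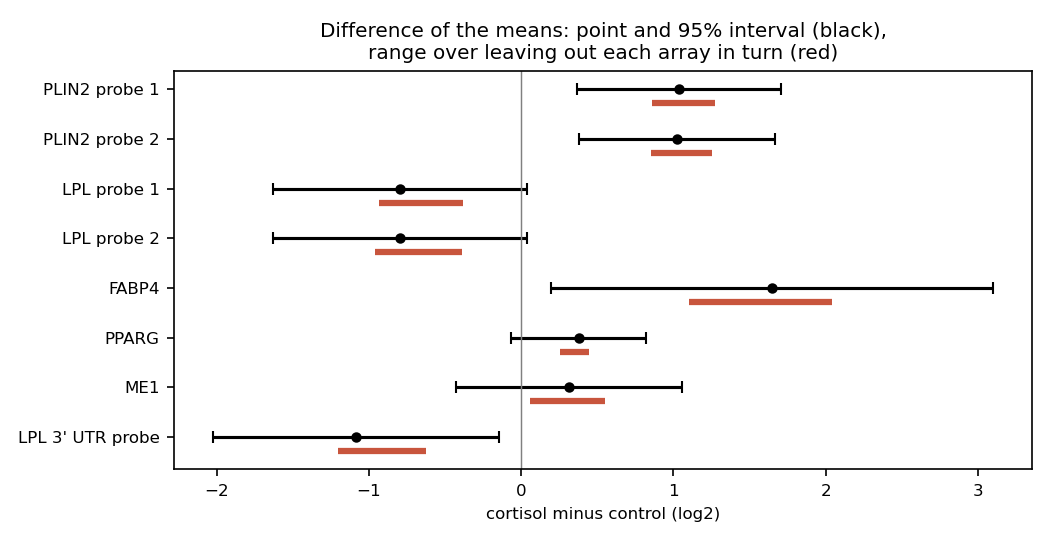
Cortisol minus control mean (horizontal axis, log2 units) for each probe of the 5 genes and the LPL 3′ untranslated region probe; black points and bars are the difference and its 95% interval from limma, and red bars the range when each of the 12 arrays is left out in turn. The intervals of both PLIN2 probes leave out 0, as does that of the LPL 3′ probe, which was chosen after seeing the data. The FABP4 interval also leaves out 0, but FABP4 entered the test through the cortisol group, with controls mostly not well above background. The red bar of LPL probe 1 runs from -0.93 to -0.38.

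Variation from array to array was compared between the 5 genes. Of their 10 pairs, none had a correlation past an adjusted permutation p of 0.05 over the 12 arrays. FABP4 and ME1 had Pearson's r of 0.61 (permutation p = 0.0377, adjusted 0.206) and Spearman's rho of 0.51 (permutation p = 0.0930, adjusted 0.698). Within the controls r was 0.66 and within the cortisol group 0.57. Most FABP4 control values were not well above background, and that of control array 5 was a substitute. The r within controls and these p-values therefore cannot show whether FABP4 and ME1 vary together. Without cortisol arrays 1 and 3, the farthest from the FABP4 median, r was 0.59, and without cortisol array 1 alone it was 0.21. Among the 8 arrays of slide 2 it was 0.12, and slide 1 held only 4 arrays.

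LPL and PPARG had Pearson's r of -0.66 (permutation p = 0.0412, adjusted 0.206) and Spearman's rho of -0.29 (permutation p = 0.358, adjusted 0.698). The relation rested on control array 3, where LPL was highest and PPARG lowest. Within the controls r was -0.95, within the cortisol group it was 0.21, and without control array 3 it was -0.22. Without control array 3 and cortisol array 1, the farthest from the LPL median, it was -0.37, and on slide 2 it was -0.79.

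PLIN2 and LPL, the genes that differed in opposite directions between the groups, had Pearson's r of -0.49 (permutation p = 0.09999, adjusted 0.333) and Spearman's rho of -0.22 (permutation p = 0.485, adjusted 0.698). Within the groups r was -0.53 in controls and 0.42 after cortisol, without cortisol array 3 and control array 3 it was -0.31, and on slide 2 it was -0.42. The remaining 7 pairs had r between -0.21 and 0.44.

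The genes most like each member were sought among 604 named genes by Pearson's r over the 12 arrays after the mean of each group was subtracted, and are given as a description. For PLIN2 they were the ribosomal protein genes RPL10 (0.845), RPL4 (0.820) and RPL14 (0.797). RPL10 was also lowest on cortisol array 4, at 7.16, and highest on cortisol array 3, at 7.99, the arrays where PLIN2 was lowest and highest within the cortisol group. For LPL they were SNAI1 (0.894), RGS2 (0.893) and TIMP3 (0.888), and all 3 were lower without control array 3, at 0.629, 0.678 and 0.762.

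For FABP4 the nearest genes were UBQLN1 (0.815), CD9 (0.813) and TRIP4 (0.790). CD9, a membrane tetraspanin, was 1.1 on cortisol array 1 and -0.93 to -0.60 in controls. For PPARG they were TRPM7 (0.820), SMAD7 (0.766) and ALDOA (0.734), which without control array 3 were 0.7504, 0.681 and 0.572. For ME1 they were SERPINC1 (0.879), LGMN (0.836) and SIRT4 (0.824). SERPINC1, which encodes antithrombin, a plasma protein made mainly by the liver, was highest on the same arrays as ME1, at 0.84 on cortisol array 1 and, among controls, -1.01 on control array 2. The liver genes ALB (albumin) and AHSG (fetuin) were -6.29 and -3.25 on cortisol array 1, where they were highest on control arrays 1 and 4.

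Other genes of lipid handling were taken from 8 lists of 138 genes, of which 29 were on the array by name and 23 were bright enough to test. Of these 23 genes, 10 were higher (43.5%, beside 46.0% of all tested probes) and 13 lower, 0 passed the adjusted threshold in limma, and the median log2 difference was -0.04, beside -0.02 over all tested probes. At an unadjusted p under 0.05 there was 1 gene (4.35%, beside 6.82% of all tested probes), CEBPB, higher by 0.89. Without control array 3, 11 were higher and 12 lower. The genes on the array by name but too dim to test included ACACA, FASN, PLIN3, ADRB3 and UCP1. On the scale of these differences, PLIN2 at 1.04 was above each of the 23 genes. That rank depended on control array 3, without which PLIN2 was 0.91 and CEBPB 0.94.

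Among uptake genes, FABP5, another cytosolic fatty acid carrier, differed by 0.74 (limma unadjusted p = 0.0512, adjusted 0.720). It ran from 2.78 to 3.76 in controls, and cortisol arrays 1, 3 and 5 were above them at 4.49, 5.50 and 4.68. Cortisol arrays 1 and 3 were thus the highest for FABP4 and among the 3 highest for FABP5. CAV1, a caveola protein that takes part in fatty acid uptake, differed by -0.08, and its 2 probes disagreed in sign.

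The other droplet coat genes had differences near 0. PLIN1 was lower by a log2 difference of -0.13 and PLIN5, the droplet coat of oxidative muscle, by -0.14, on 2 probes each, and PLIN5 was 0.10 higher without control array 3. In lipolysis, ABHD5 and LIPA differed by -0.04 each, and DGAT1, which completes triglyceride synthesis, by 0.04. None of these 5 genes passed the test.

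Of 6 genes of fatty acid synthesis and NADPH supply, the group ME1 belongs to, 3 were higher and 3 lower, with a median of -0.08, and without control array 3 the count was 2 higher and 4 lower, as ACLY turned from 0.11 to -0.20. IDH1, a cytosolic NADPH producer like ME1, differed by -0.65 (limma unadjusted p = 0.114, adjusted 0.767), and PGD, of the pentose phosphate route, by 0.04. Among PPARG partners and adipogenic regulators, 1 of 3 was higher, or 2 of 3 without control array 3. The 1 gene higher in both, CEBPB, a transcription factor of early adipocyte formation, had a limma unadjusted p of 0.0425 and an adjusted p of 0.720. It was highest on cortisol arrays 3 and 5, at 0.03 and -0.13, beside -2.73 to -1.09 in controls. PPARGC1A, a coactivator of PPARG and of mitochondrial genes, differed by -0.09 and by 0.099 without control array 3, and its 3 probes did not share a sign.

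Of 4 PPARG target and adipokine genes, 1 was higher and 3 lower, with PCK1 at 0.07, PLIN1 at -0.13 and a median of -0.08. Of 4 genes of fatty acid oxidation, 3 were higher and 1 lower, with a median of 0.37, which was 0.0046 without control array 3. UCP3, a mitochondrial carrier of muscle, went from 0.98 to 0.0014 without that array. CPT1A, the gate of fatty acids into mitochondria outside muscle, differed by 0.67, in large part through cortisol array 1, at -0.01. The controls ran from -3.71 to -2.95 and the other 5 cortisol arrays from -3.84 to -2.78. Of these, arrays 4, 5 and 6 were also above every control, where at least 3 of 6 were so for 13.3% of probes. CPT1B, its muscle form, differed by -0.21 and by -0.01 without control array 3, and SLC25A20, the carnitine carrier, by 0.07 and by 0.0079 without it.

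**Figure D4:**
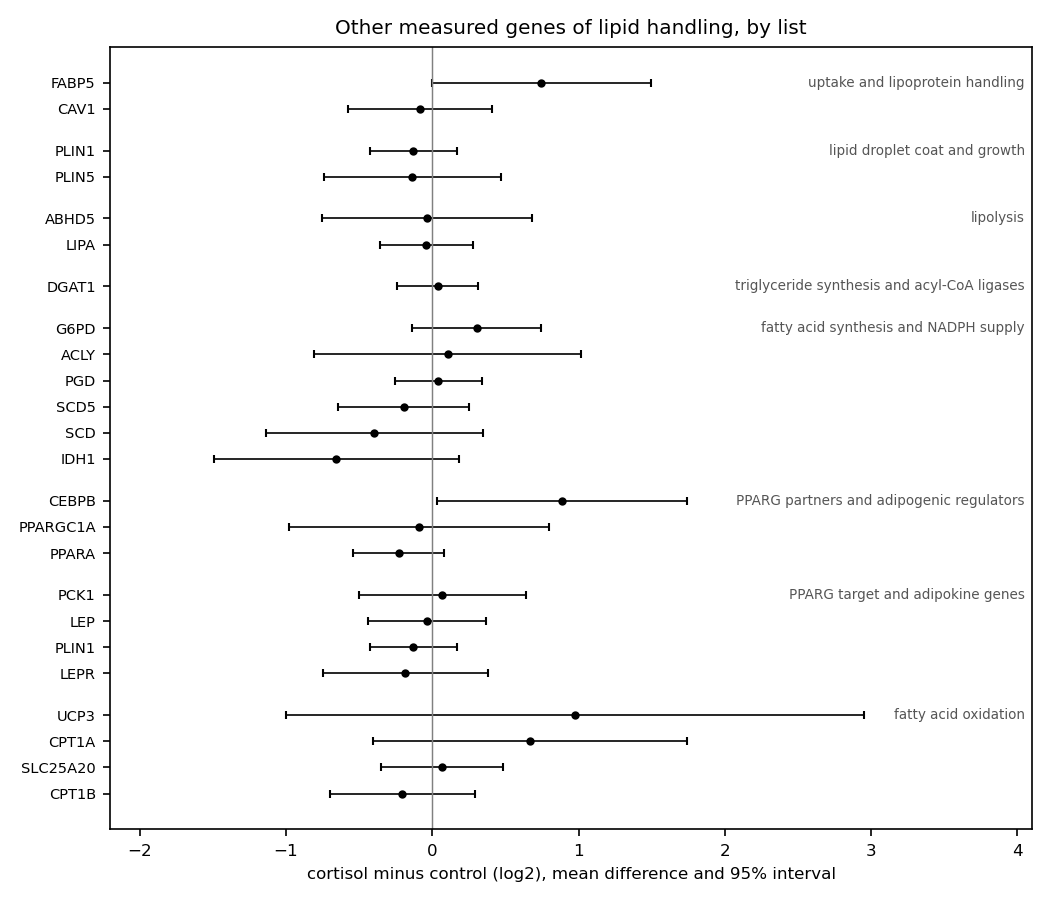
Cortisol minus control mean with its 95% interval from limma (horizontal axis, log2 units) for the measured genes of 8 lists of lipid handling, ordered by list; PLIN1 is in 2 lists. Most intervals span 0, FABP5 and CEBPB lie to the right at 0.74 and 0.89, and the wide interval of UCP3, at 0.98, comes with a value of -6.86 on control array 3.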

How the data were processed

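Per the labels, Trizol and RNeasy columns were used for the RNA, of which 500 ng went into Cy3 labelling. Agilent Feature Extraction 10.1.1.1 was the authors' scan software, per the submitters' processing notes. The deposited scanner files hold, per the file headers, spot intensity (mean, median, local background and a background-subtracted processed intensity), other values that are 0 or 1 flags, and the substitute signal where one was set. The authors also deposited a table of log2 values; its normalization is not stated in the labels or headers, and its columns' quartiles differ by at most 0.034.

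Signal was the log2 of the processed intensity, less the 75th percentile of the non-control probes on that array, with spots flagged as outliers left out and spots of 1 probe averaged. The test took the 10730 of 15008 probes that 6 or more of the 12 arrays showed well above background. Limma 3.58.1 in R 4.3.3 (lmFit, eBayes) was run on all of them, with Benjamini-Hochberg adjustment. Probes were named by RefSeq accession, symbol, Entrez gene number or synonym from a sheep RefSeq table (assembly names only, no coordinates). For 14 genes this was done by hand, and 13617 probes have no single name. The main probe of a gene is its brightest among those the naming rule finds; an LPL 3′ untranslated region probe outside the rule was brighter. Permutation tests are two-sided, exact for 2 groups of 6, and over 100000 resamples for correlations over 12 arrays. Named genes were the members, the 2 brightest and the 1 of smallest p in each list, the 3 nearest in pattern, and marker genes; RPL10, UCP3 and the array values of single genes were singled out after their values were seen. The members and lists were chosen with earlier results of these data known. The labels give replicate numbers without saying that each array is a separate fetus, so p-values measure the spread between these samples. The replicate numbers were checked and did not meet the rule for pairing the samples. The number of arrays limits the precision. Alternatives covered background correction, scaling, the filter on dim probes, slide, replicate block, variance model, choice of probe and leaving out arrays.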

Additional observations from a re-analysis of the deposited data

Results flagged for a closer look

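Each array was compared with the others of its group by the gap to its nearest neighbour as a share of the group's range. Of 16 groups of 6 arrays (8 probes, 2 groups each), 5 held an array past the 95% limit of 0.625, and chance alone passes about 1 group in 20. Of the 5, 4 are control array 3: LPL probe 1 was 2.82 there, LPL probe 2 was 2.65 and the LPL 3′ untranslated region probe was 4.58, each above all other controls, and PPARG was -0.32, below them. The 3 LPL probes measure 1 gene and are not separate findings. ME1 on control array 2 was -1.33, above the other controls.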

How the results depend on the processing

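Each gene's difference kept its sign and stayed on the same side of the adjusted threshold under all alternatives run, 29 to 32 per gene. Some of these, such as the filters, the slide and replicate blocks and the variance trend, return the main difference by design. Those could not have changed its sign. Over them PLIN2 ran from 0.73, without control and cortisol arrays 3 together, to 1.27, and LPL from -1.08, on the 3′ untranslated region probe (an alternative chosen after seeing the data), to -0.38. FABP4 ran from 0.35 with normexp to 2.04 without cortisol array 6, PPARG from 0.077 on slide 1 alone to 0.53 on slide 2 alone, and ME1 from 0.056 to 0.55. Limma's unadjusted p was under 0.05 in 31 of 31 alternatives for PLIN2 and 8 of 32 for LPL, and in 0 for PPARG and ME1. FABP4 is left out of this count, since it entered the test through the cortisol group. The count of probes past the threshold was 1 on slide 1 alone, where 4 arrays were fitted, 0 when any 1 array was left out, and 0 in the other alternatives. The replicate block gave 0 probes; in this balanced design it cannot move a difference (PLIN2 1.04, LPL -0.79), and limma's unadjusted p went from 0.00514 to 0.0212 for PLIN2 and from 0.0608 to 0.0331 for LPL. Same-numbered arrays had correlations of -0.11 to 0.25, 4 of 6 over 0.1, and 3 of 6 matched their own number best, so the numbers were not taken as a pairing. The filter on all 12 arrays gives no FABP4 value. Correlations near 0 turned sign. With each array left out in turn, PLIN2 with PPARG ran from -0.036 (without control array 3) to 0.48, PLIN2 with ME1 from -0.0041 (without cortisol array 1) to 0.41, LPL with FABP4 from -0.37 to 0.0029 (without cortisol array 1) and PPARG with ME1 from -0.074 (without cortisol array 5) to 0.23. LPL with FABP4 was 0.0031 on slide 2, and PPARG with ME1 -0.024 without both arrays 3. FABP4 with ME1 was 0.82 (adjusted permutation p = 0.0197) without cortisol array 3 and 0.82 without both arrays 3; the cause was not tested. FABP4 is limited by its signal over background, since 6 arrays are not well above it. The adjusted permutation p of 0.0197 is thus no support for a relation of FABP4 with ME1.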

Other observations

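Skeletal muscle markers varied within the cortisol group, and cortisol arrays 1 and 3, which had the most FABP4 signal, had the lowest mean of MYOD1, MYOG and MB, at 1.72 and 1.20. That mean was 2.22 to 2.93 on the other cortisol arrays and 2.83 to 3.08 in controls. The single genes did not single out these arrays alike. MYOD1, a transcription factor of muscle cells, was -0.35 and 1.01 on them and 0.49 on cortisol array 5, beside 2.14 to 2.59 on the other 3 cortisol arrays and 1.63 to 2.27 in controls. MB (myoglobin) was lowest on cortisol arrays 3 and 2, at 2.85 and 3.74, while cortisol array 1, at 5.99, was the highest of its group and just below the controls, at 6.06 to 7.00. The mean of the fast fibre genes MYH1, MYH2 and TNNC2 did not set these arrays apart alike either. It was 6.67 on cortisol array 1 and 7.67 on cortisol array 3, beside 7.14 to 7.73 on the other cortisol arrays. On LPL probe 1, cortisol arrays 1 and 3, at -0.42 and 0.30, were the lowest and the highest of the cortisol group.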
